A study of Drosophila melanogaster with 2 samples.

Results

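The Polycomb group genes studied here are 10 genes of Drosophila melanogaster, given as a list and found by symbol among 13945 annotated protein-coding genes. They comprise 6 genes of Polycomb repressive complex 1 (PRC1: Pc, ph-p, ph-d, Psc, Su(z)2 and Sce), 3 genes of Polycomb repressive complex 2 (PRC2: E(z), esc and Su(z)12) and pho, which encodes a DNA-binding protein. At each gene, peaks of the CG1620 protein were read from chromatin immunoprecipitation with sequencing (ChIP-seq). A peak was assigned to a promoter when its summit was no more than 500 bp from the transcription start site (TSS) of any annotated transcript of the gene, and every summit between the ends of a gene was counted as inside it.

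Whole adult females of unknown age were used, from a transgenic line that expresses CG1620 with enhanced green fluorescent protein (eGFP) at its C-terminus, and the precipitation used an antibody against GFP. The 2 biological replicates, numbered 2 and 3, carry the same transgene and form 1 group, with no second condition, so no test between conditions was possible. The chromatin came from all cell types of the fly together, so a peak cannot be assigned to a tissue, and no library from flies without the transgene was analysed here. The data are lists of peaks from which read depth is unknown: 30000 candidates in each replicate and in the pooled data, and an optimal set of 3894 peaks kept by the irreproducible discovery rate procedure (IDR), which judges how many peaks to keep from the agreement between replicates. The signal is the score that the authors' peak caller gave each peak over the control; it was not scaled between lists, and the weakest IDR peak had a pooled signal of 70.0.

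Polycomb group proteins keep developmental genes silent through cell division. PRC2 places methyl groups on lysine 27 of histone H3, with E(z) as the enzyme and esc and Su(z)12 as subunits it needs. PRC1 reads that mark through the chromodomain of Pc, and its Sce subunit (dRing) attaches ubiquitin to histone H2A with a RING-finger partner, Psc or the related Su(z)2. The Polyhomeotic proteins of ph-p and ph-d carry a SAM domain through which PRC1 units join. In the fly these complexes gather at Polycomb response elements, to which Pho, a zinc-finger protein related to vertebrate YY1, binds.

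CG1620 peaks lay at the promoters of most of these genes. An IDR promoter peak was found at 7 of the 10, beside 26.3% of all protein-coding genes. The 7 were Pc, ph-p, ph-d and Psc of PRC1 (4 of 6) and E(z), esc and Su(z)12 of PRC2 (3 of 3). The promoter of pho had none, and neither did those of Su(z)2 and Sce. The exact 95% binomial intervals, which cover counting error only and treat genes as independent, were 22.3 to 95.7% for PRC1 and 29.2 to 100% for PRC2, so a difference between the complexes was not detectable with so few genes. Among the 1947 strongest IDR peaks alone, 4 of the 10 genes had a promoter peak (ph-p, ph-d, E(z) and Su(z)12), beside 15.7% of all protein-coding genes.

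The share of genes with a promoter peak was higher where more start sites are annotated. Among all protein-coding genes, the share with an IDR promoter peak was 21.0% for genes with 1 TSS position, 37.0% with 2 and 46.3% with 3. Of the members, 3 of the 5 with 1 position had a peak (Pc, esc and Su(z)12 did, Sce and pho did not), as did 3 of the 4 with 2 positions, and ph-p, the only member with 3.

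The IDR set is a cut through a ranked list, and 2 of the 3 genes without an IDR peak had weaker candidates. A pooled promoter candidate lay at 9 of the 10 genes, beside 57.5% of all protein-coding genes, and Sce was the exception. Promoter candidates of both replicates that overlapped each other lay at 8 of the 10, beside 40.8%; Su(z)2 and Sce lacked them. All 7 members with an IDR peak were among the 8, together with pho.

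Within PRC1, the signals differed widely. The strongest promoter peak of ph-p (dm6, chromosome X, 2137734 to 2138062) had a signal of 475 in the pooled data, 337 in replicate 2 and 138 in replicate 3. It ranked 91 of all pooled candidates, and 93 and 90 in replicates 2 and 3. The replicate 3 summit was 502 bp from the TSS, just outside the promoter window, so the strongest promoter candidate of ph-p in that replicate was its second peak, with 65.6. Among the 3662 protein-coding genes with an IDR promoter peak, whose strongest signal had a median of 133 and an interquartile range of 94.8 to 209.9, ph-p ranked 105. The gene spans 12162 bp on the minus strand, and the summit lay in the 5′ UTR, 463 bp downstream of the outermost of its 3 TSSs.

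The tandem copy ph-d (chromosome X, 2115727 to 2123286, minus strand) had its promoter peak 255 bp upstream of the outer of its 2 TSSs, in intergenic sequence. Its signal was 166 in the pooled data, 131 in replicate 2 and 40.6 in replicate 3. The summit was at the same base in all of these lists. The peak ranked 1079, 936 and 1345 there, below the ph-p peak in every list.

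Pc and Psc were near the weak end of the IDR set. The Pc peak (chromosome 3L, 21317895 to 21318294) had signals of 84.2 pooled, 67.7 in replicate 2 and 17.5 in replicate 3, with its summit 75 bp upstream of the single TSS. The Psc peak (chromosome 2R, 12980493 to 12980892) had signals of 71.9, 58.7 and 11.6 in the same order, and its summit lay in the 5′ UTR, 35 bp upstream of the inner of its 2 TSSs. In replicate 3 they ranked 4070 and 8913, beyond the number of peaks in the IDR set, and in replicate 2 they ranked 2804 and 3436, within it. Using the 3894 strongest candidates of replicate 3 alone therefore left 2 of the 6 PRC1 genes with a promoter peak, ph-p and ph-d, and 5 of all 10, beside 25.4% of all protein-coding genes at that setting.

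The remaining pair of PRC1 genes had no IDR promoter peak. Su(z)2 (chromosome 2R, 12996501 to 13007911, plus strand) had pooled promoter candidates of 27.2 and 25.6, at ranks 16171 and 17948, and 1 in replicate 2 of 35.9 at rank 6907. Replicate 3 held no promoter candidate there; its nearest lay 621 bp downstream of the inner TSS with a signal of 10.8. Sce (chromosome 3R, 27680431 to 27682029), the shortest of the members at 1599 bp, had no candidate at its promoter or inside the gene in any of the 4 lists. The IDR summits nearest to the TSSs of Su(z)2 and Sce were 4879 and 4613 bp away.

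**Figure D1:**
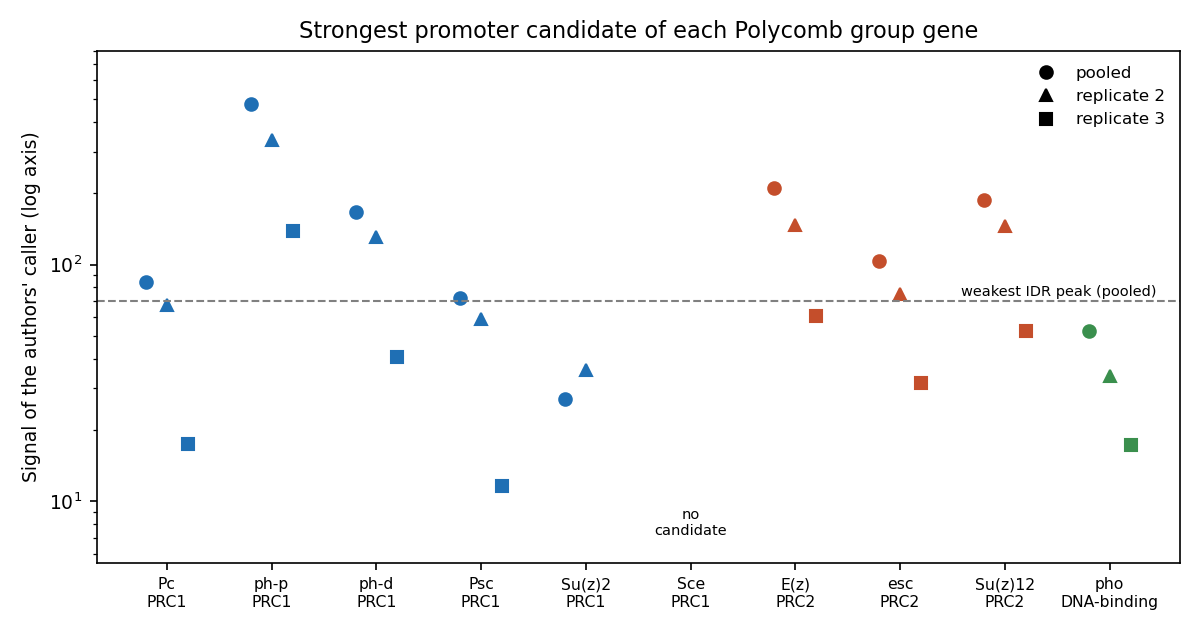
Signal of the strongest pooled promoter candidate of each gene (circles) and of the overlapping candidates in replicate 2 (triangles) and replicate 3 (squares), on a log axis; blue is PRC1, orange PRC2 and green pho, and the dashed line is the weakest pooled signal in the IDR set, 70.0. The pooled value of ph-p, 475, stands above the others, pho and Su(z)2 lie under the line and Sce has no candidate.

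The 3 PRC2 members all had promoter peaks close to a TSS. The E(z) peak (chromosome 3L, 10637919 to 10638318) had a signal of 209.7 pooled, 147 in replicate 2 and 60.7 in replicate 3, at ranks 724, 751 and 685. Its summit lay in the 5′ UTR 11 bp from the outer TSS. The same summit lay 27 bp from the TSS of the neighbouring gene Cnep1r2, so the peak belongs to a shared promoter region.

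Su(z)12 gave similar values, 187 pooled, 146 in replicate 2 and 52.2 in replicate 3, at ranks 882, 764 and 901. The peak (chromosome 3L, 19923350 to 19923749) had its summit in intergenic sequence, 88 bp upstream of the Su(z)12 TSS and 121 bp from the TSS of Pfdn6, which encodes a prefoldin subunit. Replicate 3 listed a pair of overlapping candidates there, of 52.2 and 36.4, on either side of the pooled summit.

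The esc peak (chromosome 2L, 11829185 to 11829584) was the weakest of the 3 PRC2 peaks in every list. Its signals were 103 pooled, 75.1 in replicate 2 and 31.6 in replicate 3, at ranks 2302, 2396 and 1883. The pooled summit lay in the 5′ UTR 20 bp downstream of the single TSS, and that of replicate 3 lay 96 bp upstream of it.

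The DNA-binding member was not in the IDR set. The promoter candidate of pho (chromosome 4, 1181800 to 1182199) had a signal of 52.5 pooled, 33.7 in replicate 2 and 17.3 in replicate 3, at ranks 5697, 7592 and 4172, with its summit 372 bp upstream of the single TSS. In replicate 3 the value at pho was close to that at Pc and above that at Psc, whereas in replicate 2 and in the pooled list it was below both. The nearest IDR summit was 17174 bp from the pho TSS. A single gene cannot stand for DNA-binding members in general.

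Replicate 2 had the higher signal at every member peak. Over the 3747 IDR peaks with a candidate in both replicates, the signal of replicate 2 divided by that of replicate 3 had a median of 2.77 and an interquartile range of 2.17 to 3.68. At the PRC2 promoters the ratio was 2.42 for E(z), 2.38 for esc and 2.80 for Su(z)12, and at the strongest ph-p peak it was 2.43, all within that range, as was 3.21 at ph-d. It was 3.86 at Pc and 5.07 at Psc; 11.0% of the IDR peaks had a higher ratio than Psc. The second ph-p promoter peak had a ratio of 2.18, at the lower edge of the range. Below the range were the ph-p peak away from its promoters, at 1.77, with 89.4% of the IDR peaks higher, and the pho candidate, at 1.95. The lists are not scaled to each other, so the ratio does not measure binding.

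**Figure D2:**
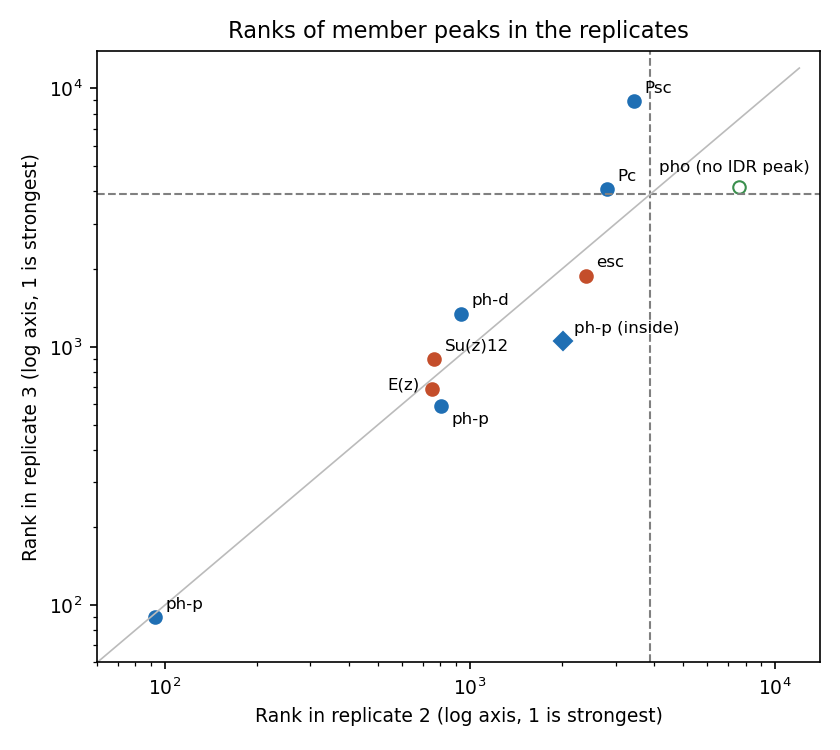
Rank of each member's IDR peaks in replicate 2 (x, log axis) and replicate 3 (y, log axis), with rank 1 the strongest; blue is PRC1, orange PRC2, the diamond is the ph-p peak away from its promoters, and the open green circle is the pho candidate, which is not in the IDR set. Dashed lines mark rank 3894, the size of the IDR set, and the grey line equal ranks; Pc at 4070 and Psc at 8913 lie above the horizontal line.

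In the IDR set, the ph-p gene had 3 peaks and no other member more than 1; in the pooled list Su(z)2 had 2 promoter candidates and 5 others inside the gene, and ph-p 2 and 4. Besides the strongest, a second IDR promoter peak (chromosome X, 2137251 to 2137446) lay in an intron, 453 bp upstream of an inner TSS, with signals of 206 pooled, 143 in replicate 2 and 65.6 in replicate 3. A further IDR peak (2135086 to 2135485), with 131, 84.2 and 47.6 in the same order, lay in an intron 1336 bp downstream of the innermost TSS. It was the only IDR peak inside a member that was not a promoter peak.

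The 5′ regions of ph-p and ph-d match each other, as is known of this tandem duplication, and their peaks could be compared base by base. Alignment of the sequence around the outermost TSSs found 3 matching stretches, of 529, 387 and 358 aligned positions with 90.7, 70.5 and 81.0% identity. The ph-d summit fell in the first of them. Its counterpart in ph-p, base 2137107, lay in no candidate of the IDR, pooled, replicate 2 or replicate 3 lists, and the nearest pooled summit was that of the second ph-p peak, 201 bp away. In replicate 3 a weaker ph-d candidate (signal 35.0, rank 1645) had its summit in the 387-position stretch. Its ph-p counterpart, base 2137842, lay inside the strongest ph-p candidate of that replicate, 27 bp from its summit. The summits of the overlapping pooled and replicate 2 candidates, 2124068 and 2124132, lay in no matching stretch. They lay between the 387-position and 358-position stretches, as did the pooled summit of the strongest ph-p peak, base 2137908, in the other copy. Another ph-d candidate of replicate 2 (signal 17.4, rank 22225) had its summit in the 358-position stretch. The ph-p counterpart of that summit, base 2138079, lay in no candidate of replicate 2, and the nearest summit was 168 bp away. Neither of the 2 IDR summits at the ph-p promoters lay in a matching stretch.

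The windows around the ph-d summit and its ph-p counterpart are shown because they are nearly the same sequence while a summit was listed in the former alone. In ph-p, the IDR, pooled and replicate 2 lists had no candidate over the window, and the replicate 3 candidate of the second ph-p peak (signal 65.6) reached over 30 bp at its edge. Both are read 5′ to 3′ on the minus strand of dm6, in lower case, with capitals at the bases that differ between them: 3 in ph-d (chrX:2123491-2123591) and 8 in ph-p (chrX:2137057-2137162), 5 of which form an insertion.
ph-d: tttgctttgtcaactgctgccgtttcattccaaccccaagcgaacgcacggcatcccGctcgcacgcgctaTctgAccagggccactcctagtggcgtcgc
ph-p: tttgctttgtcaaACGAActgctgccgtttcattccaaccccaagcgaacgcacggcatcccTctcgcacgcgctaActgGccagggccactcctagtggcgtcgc

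The sources used here do not say how the authors placed reads that match more than 1 site, and its part in the difference between the copies was not tested. Of the ph-d peak, 363 aligned positions matched ph-p (2136910 to 2137264) at 92.0% identity. At 80% identity or more, the strongest ph-p peak had 1 shorter match, of 109 positions at 84.4% identity, in the sequence upstream of ph-d. The 387-position stretch also reached into this peak, up to base 2137855, but its identity of 70.5% is below that limit. The other 9 sites examined, among them the other ph-p IDR peaks and the promoter sites of the other 7 members with a candidate, had no match of at least 100 bp and 80% identity elsewhere in the genome.

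**Figure D3:**
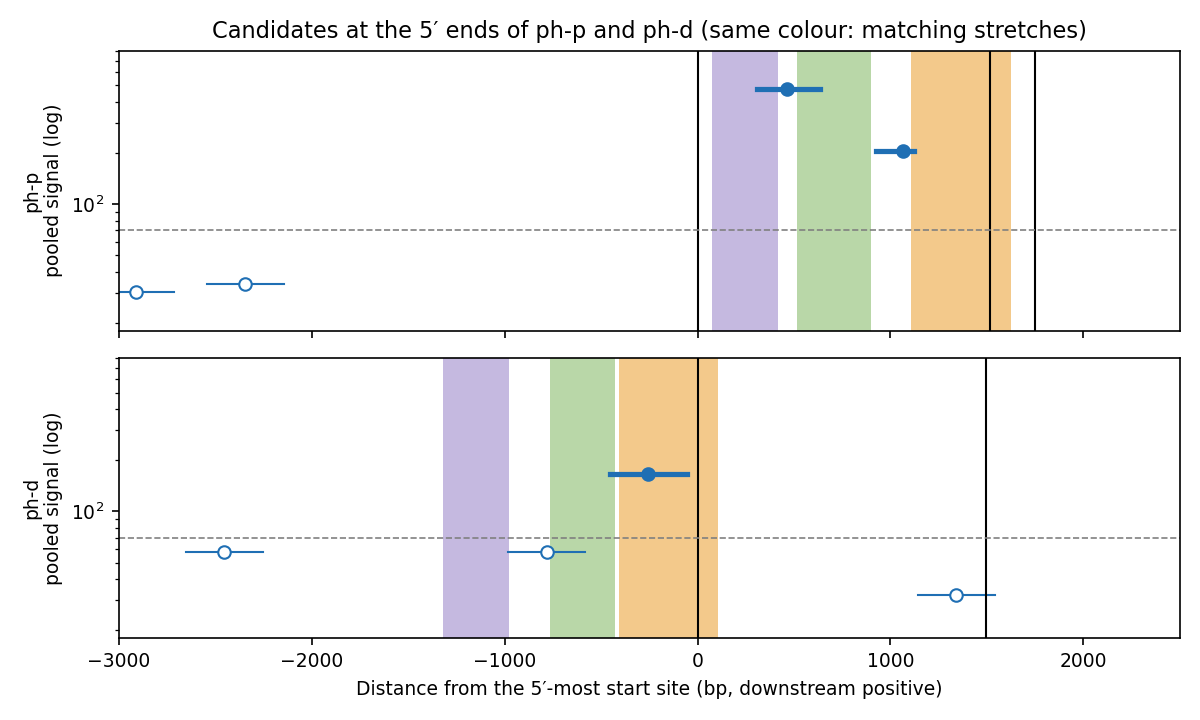
Pooled candidates at the 5′ ends of ph-p (top) and ph-d (bottom), by distance from the outermost TSS in bp (x) and signal (y, log axis); horizontal bars span each candidate, circles mark summits (filled if in the IDR set), vertical lines are annotated TSSs, the dashed line is a signal of 70.0, and stretches of the same colour match between the genes. The ph-d peak of 166 sits in the orange stretch, whose ph-p copy holds no summit; the ph-p peaks of 475 and 206 have their summits between the coloured stretches.

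The base composition at these summits reached from below the 5% point to above the 95% point of the IDR promoter peaks. The 101-bp windows around the 2960 IDR promoter summits had a median G and C content of 39.6%, with 5% and 95% points of 23.8 and 55.4%. The ph-d window held 60.4% and the window of the strongest ph-p peak 20.8%, so these 2 windows, which are not copies of each other, lay beyond opposite ends of that range. The second ph-p promoter peak held 36.6%, near the median. Su(z)12 had 24.8%, pho 37.6%, Pc 43.6%, E(z) 45.5% and esc 49.5%. The windows of Pc, the second ph-p peak, Su(z)12 and pho are shown to let these compositions be read, on the minus strand of dm6 and without capitals because no motif searched was found in them; they span chr3L:21318045-21318145, chrX:2137258-2137358, chr3L:19923500-19923600 and chr4:1181950-1182050.
Pc: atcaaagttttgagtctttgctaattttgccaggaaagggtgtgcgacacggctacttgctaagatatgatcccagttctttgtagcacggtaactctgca
ph-p: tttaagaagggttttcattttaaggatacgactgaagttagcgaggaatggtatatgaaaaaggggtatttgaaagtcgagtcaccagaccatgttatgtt
Su(z)12: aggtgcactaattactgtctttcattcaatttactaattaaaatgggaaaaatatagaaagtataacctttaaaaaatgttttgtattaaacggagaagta
pho: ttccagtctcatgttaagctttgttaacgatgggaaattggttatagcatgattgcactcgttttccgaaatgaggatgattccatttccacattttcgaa

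Exact matches to 8 motifs were searched on both strands within 50 bp of the strongest promoter summit of each member. At 3 of the promoters shown here a motif was found, each in a 30-base stretch in which capitals mark the match: TATAAA at ph-p (chrX:2137861-2137890), GAGAG at E(z) (chr3L:10638140-10638169) and GGTCACAC at esc (chr2L:11829359-11829388), all read on the minus strand of dm6.
ph-p: taacattgTTTATAtgTATAAAaagtttgg
E(z): attccacgtttGAGAGcactgataacgggc
esc: tccgtgactggGGTCACACcattgccgcca

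TATAAA, the letters of a TATA box, lay on both strands 29 and 37 bp downstream of the ph-p summit, which is inside the transcript and not at the usual place of a TATA box; 15.2% of all IDR promoter peaks and 19.2% of promoter windows of the same length held it. GAGAG, the core bound by GAGA factor, was held by 10.8% of the peaks and 15.6% of the promoter windows. GGTCACAC, the core of the Motif 1 promoter element, was held by 3.68 and 2.26%. GCCAT, the core bound by Pho, was at none of the members' summits, beside 17.0% of peaks and 16.9% of promoter windows. The DRE letters TATCGATA (5.81 and 4.57%), CAGCTG (7.80 and 7.14%), CACGTG (1.39 and 1.02%) and AACCCCC (0.743 and 0.696%) were at none of them either. A match of letters is a description and does not show that a factor binds.

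Psc, on chromosome 2R, also held GAGAG, as 3 overlapping matches 12 to 16 bp upstream of its summit, so 4 of the 9 members with a promoter candidate had a match to any of the 8 motifs. This share is near the background, since 49.6% of all IDR promoter peaks and 53.8% of promoter windows of the same length held at least 1 of them.

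Inside the genes, IDR summits lay in 4 of the 10 members (ph-p, Psc, E(z) and esc), beside 10.9% of all protein-coding genes, and all but 1 of these summits were also promoter summits. The pooled list had 15 candidates inside members and away from promoters. Of these, 10 lay in introns or non-coding exons, 4 in coding sequence and 1 in a 3′ UTR. Most were seen in 1 replicate alone: 13 had an overlapping candidate in replicate 2, 4 in replicate 3 and 3 in both, and those 3 were all in ph-p.

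Su(z)2 and pho, which had no IDR peak, had candidates inside the gene as well. The strongest in Su(z)2 had a pooled signal of 55.0 at rank 5349, 8004 bp downstream of the inner TSS, above the 27.2 at its promoter. It had 46.6 in replicate 2 and no partner in replicate 3. In pho the inside candidate had 42.5 pooled and 26.8 in replicate 2, 3839 bp from the TSS, and none in replicate 3.

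**Figure D4:**
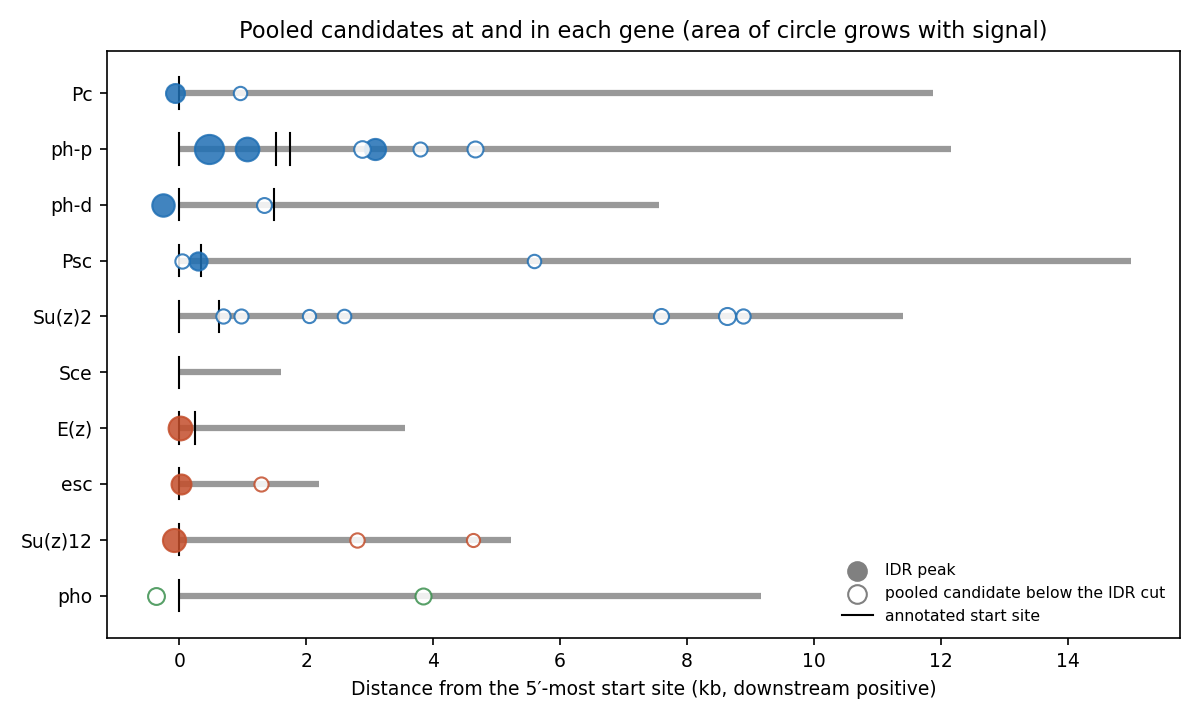
Pooled candidates at the promoters of and inside the 10 genes, by distance from the outermost TSS in kb (x); grey bars are the genes, vertical ticks the annotated TSSs, and circles the summits, with an area that grows with the signal, filled where the peak is in the IDR set. Filled circles lie near TSSs except for the ph-p peak of 131, and Su(z)2 and pho have open circles only.

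Psc and Su(z)2 are neighbours, 15506 bp apart, and the sequence between them on chromosome 2R held 2 IDR peaks. The stronger, with 169.0 pooled, 114.8 in replicate 2 and 45.8 in replicate 3, had its summit at base 12985201, 4207 bp upstream of the outer Psc TSS and 11300 bp upstream of the outer Su(z)2 TSS. Its pooled signal was above the 71.9 of the Psc promoter peak. The weaker had 70.3, 50.9 and 20.9 in the same order, at base 12991622. Annotated between the pair are 2 further genes, CG33798 and the non-coding lncRNA:CR44339, so neither peak can be assigned to Psc or Su(z)2. Between ph-d and ph-p, 2923 bp apart, the ph-d promoter peak was the only IDR peak, and the pooled list had candidates of 57.9 and 57.7 beside it.

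Other genes of the same system were read from lists drawn up with earlier results of these data known. Of 20 other Polycomb genes, 11 had an IDR promoter peak (55.0%, exact interval 31.5 to 76.9%), and all 20 had a pooled promoter candidate. Over all protein-coding genes these shares were 26.3 and 57.5%. The strongest were at Sfmbt (294), whose protein partners Pho, at mxc (241), needed at the histone gene cluster, and at jing (231), a zinc-finger gene. They were followed by l(3)73Ah (164), a RING-finger gene, cg (147), a DNA-binding zinc-finger gene, and Jarid2 (126), which encodes a subunit of a PRC2 variant. Each of these pooled signals was below that of the strongest ph-p peak. Among the genes without an IDR promoter peak were Caf1-55, escl and Pcl, which encode further proteins of PRC2 or its variants. Their pooled promoter signals were 45.2, 64.3 and 49.8. Overlapping promoter candidates of both replicates lay at escl and Pcl and not at Caf1-55.

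Trithorax group genes, which keep developmental genes active against Polycomb silencing, had an IDR promoter peak in 15 of 20 cases (75%, interval 50.9 to 91.3%), beside 26.3% of all protein-coding genes. The strongest signals were at brm (458), the ATPase of the fly SWI/SNF complex, and fs(1)h (390), a BET bromodomain gene. Next came skd (189), a Mediator subunit, Mnn1 (165), the menin gene, Trl (144), which encodes GAGA factor, and kis (142), a chromatin remodeller of the CHD family.

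None of the listed classical target genes of Polycomb silencing had an IDR promoter peak. Among 16 classical targets, such as the homeotic genes Ubx, Antp and Abd-B, 0 had one (interval 0 to 20.6%), 5 had a pooled promoter candidate and 0 had overlapping candidates of both replicates. Over all protein-coding genes these shares were 26.3, 57.5 and 40.8%. At the IDR cut, 7 of the 10 genes that encode the Polycomb proteins themselves had a peak. The lists are small and were not compared by a test.

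**Figure D5:**
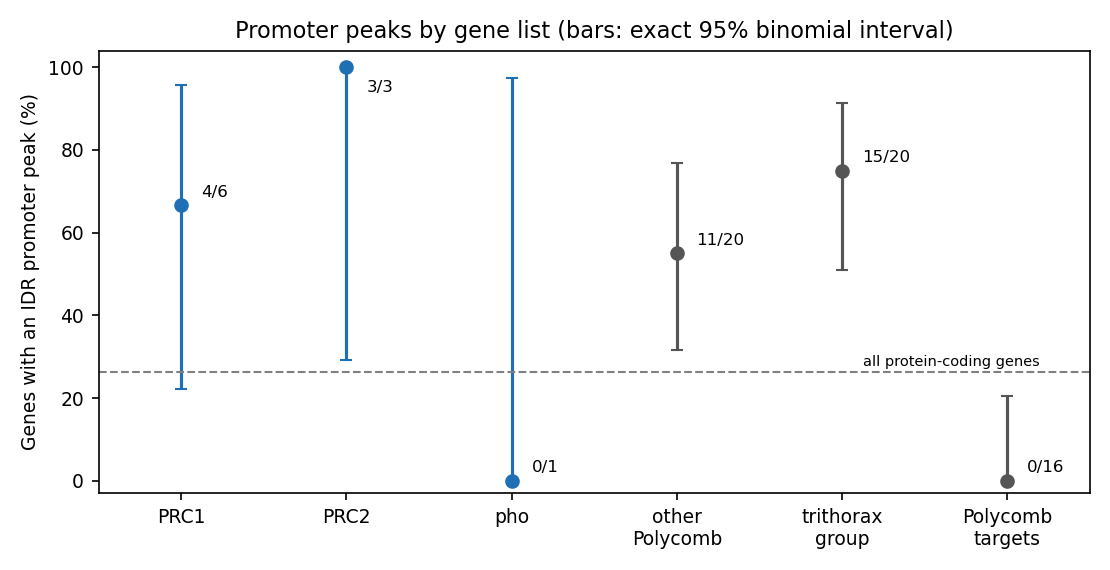
Share of genes with an IDR promoter peak in each list (points) with exact 95% binomial intervals (bars), and the number of genes beside each point; the dashed line is the share over all protein-coding genes, 26.3%. PRC1, PRC2, the other Polycomb genes and the trithorax group genes lie above the line, pho and the target genes at 0.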

How the data were processed

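Chromatin of whole female adults, sheared to between 200 and 800 bp per the labels, was precipitated through the eGFP tag of CG1620. The authors deposited peak lists: per the deposited README texts, a replicate's list was called on that replicate's alignment against 1 control file, the pooled list from both alignments, and the IDR set from these lists. The signal values are those of the authors' caller, deposited without scaling between lists; the sources used here name no aligner, caller, threshold or treatment of multiply matching reads. The lists stop at 30000 entries, with weakest signals of 18.9 (pooled), 14.2 (replicate 2) and 6.69 (replicate 3), and the IDR set equals the top of the pooled list. No read counts were available, so single signals have no interval.

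Coordinates are dm6, 1-based. TSSs came from Ensembl release 115 and sequence from RefSeq's release 6 assembly. Replicate candidates were partners where they overlapped by at least 50% of either peak. Matching sequence was sought with blastn 2.17.0 (E-value limit 1e-5, at least 100 bp; against the genome also at least 80% identity). Promoter windows for motifs were 101 bp. Python 3.11.15, pandas 2.3.3, numpy 2.4.6, scipy 1.17.1 and matplotlib 3.10.9 were used. Peak assignment was tested on simulated data.

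The members and lists were chosen with earlier results of these data known. All members are named, as are genes that share a member's promoter peak and, of the other lists, the 6 strongest with an IDR promoter peak; the genes between Psc and Su(z)2 and the example targets were named after their values were seen. The comparison of ph-p with ph-d and of base composition was added after peaks were seen. Alternatives were other windows, the 1947 strongest IDR peaks, each replicate alone, any overlap and the outermost TSS only.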

Additional observations from a re-analysis of the deposited data

How the results depend on the processing

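Of the counts recomputed under the alternatives, 50 stayed within 1.5 times of the reported count and 8 moved further. Among the 1947 strongest IDR peaks, the members with a promoter peak fell from 7 to 4, PRC1 genes from 4 to 2 and trithorax group genes from 15 to 8. The share of all protein-coding genes with a promoter peak fell from 26.3 to 15.7%. Members with an IDR summit inside fell from 4 to 2, and the share over all genes is not given for that count at this setting. Fewer peaks were used in these counts by construction. With a window of 250 bp, members with an IDR promoter peak came to 5, beside 22.4% of all protein-coding genes, and PRC1 genes to 2. Members with candidates of both replicates came to 5, for which the share over all genes was not computed at this window. The strongest ph-d promoter signal became 32.1, since the summit of its IDR peak lies 255 bp from the TSS. For ph-p and pho there was then no pooled promoter candidate and so no value. Leaving out 1 replicate gave 5 to 7 members, 2 to 4 PRC1 genes, 3 PRC2 genes, 0 for pho, 10 to 11 other Polycomb genes, 13 to 14 trithorax group genes, 0 Polycomb targets and 4 members with a summit inside. Without replicate 2, Pc and Psc were lost. The share over all protein-coding genes was 25.4% without replicate 2 and 25.9% without replicate 3. Within 100 bp of the summit, 7 members had any motif match in place of 4. At that width, 75.8% of all IDR promoter peaks and 76.4% of promoter windows held a match. Of the signals, 24 stayed and 1, that of ph-d, moved. Sce has no signal under the settings in which it was read. No paired analysis was possible because there is 1 group. Read depth is unknown, so a gene without an IDR peak is one at which none was listed, not one shown to be unbound.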
